A study of Mus musculus with 17 samples.

Results

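The genes described here are 46 that promote or restrain apoptosis, 27 in the promoting list and 19 in the restraining list. They were picked by symbol from 28640 genes measured in mouse hearts, and 41 of them (24 promoting and 17 restraining) were tested, since their mean level was 0.5 FPKM or more in 1 or more of the groups. FPKM counts reads relative to exon length and library size. The samples are cardiac RNA in 3 groups: 5 control libraries from mice without a tumour, 6 tumour libraries from mice with a transplanted CT-26 tumour (a mouse colon carcinoma line), and 6 tumour_swim libraries from CT-26 mice that also swam. No group swam without a tumour, and the labels used here state no strain, sex, age, tumour burden or swimming schedule. The labels do not say that the libraries of a group come from separate animals, so p-values measure the spread between these libraries, which may be technical. Cardiac apoptosis, beside inflammation and PI3K-AKT signalling, is named in the series' title.

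Apoptosis is driven by a cascade that starts either at death receptors of the TNF receptor family or at the mitochondrion. In the mitochondrial route, BH3-only proteins sense damage and bind the guardian proteins of the BCL2 family, which frees BAX and BAK to open the outer mitochondrial membrane. Cytochrome c then joins APAF1 to activate caspase 9, while inhibitor of apoptosis proteins (IAPs) hold caspases in check until SMAC or HTRA2 displaces them. PI3K-AKT signalling is known to keep FOXO transcription factors out of the nucleus, and the BH3-only genes Bcl2l11 and Puma (Bbc3) are textbook FOXO targets. Cardiomyocytes are long-lived cells that divide little.

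The promoters of these BH3-only genes are shown because they carry the only matches to a FOXO motif among the promoters of the list that were searched. RefSeq promoters (GRCm38.p6, 250 bases before to 50 after a start) were found for 40 of the 46 genes, 54 promoters in all. Capitals mark the match to TGTTTAC or its reverse complement GTAAACA. The first lies at chr2:128125788-128126087 on the + strand, the second at chr7:16310011-16310310 on the + strand.
Bcl2l11: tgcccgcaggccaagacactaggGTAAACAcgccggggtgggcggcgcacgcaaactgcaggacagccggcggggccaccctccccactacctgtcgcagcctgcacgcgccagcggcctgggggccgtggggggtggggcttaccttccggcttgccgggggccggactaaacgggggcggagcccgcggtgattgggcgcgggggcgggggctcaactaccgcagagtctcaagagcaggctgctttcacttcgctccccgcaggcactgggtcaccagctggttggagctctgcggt
Bbc3: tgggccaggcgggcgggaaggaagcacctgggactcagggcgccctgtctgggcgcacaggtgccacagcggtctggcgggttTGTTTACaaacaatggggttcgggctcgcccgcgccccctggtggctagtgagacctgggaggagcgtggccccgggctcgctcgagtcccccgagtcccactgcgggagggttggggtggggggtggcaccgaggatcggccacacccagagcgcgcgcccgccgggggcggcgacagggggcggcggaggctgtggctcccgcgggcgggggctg
The match starts 227 bases before the start of Bcl2l11 and 167 bases before 1 of the 3 starts given for Bbc3. This motif is in 3.65% of all 32851 promoters of the same length, both strands searched. Among the promoters searched, an NF-kB motif (GGGA, any 2 bases, then TTCC, in 1.47% of all promoters) was found only at Trp53. A STAT motif (TTCCNGGAA, in 1.15%) was found only at Ripk1. The 3 motifs were searched on both strands and do not contain each other. The other 50 promoters had none of the 3. Median GC content was 60.1% in the promoters of the list and 52.7% in all promoters. A match is a stretch of letters, not a measured binding site.

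Depth was 13.4 to 19.8 M reads a library, recovered from the spacing of low values, and mitochondrially encoded RNA took 16.9% to 46.3% of reads. Long transcripts were most under-represented in 3 libraries, control 1, control 4 and tumour_swim 1, which are called here the libraries that stood apart. Among the 41 tested genes of the list, the Spearman correlation of exon length with a library's deviation from the others of its group was between -0.63 (control 4) and -0.58 (tumour_swim 1) in these 3, a description across genes, which are not independent. Weaker negative values were found in tumour 2 (-0.46), control 5 (-0.34), tumour 1 (-0.25), tumour 6 (-0.09) and tumour 5 (-0.06). Control 2 and control 3 had the opposite trend, at 0.68 and 0.73, measured against a group that holds control 1 and control 4. Positive values were also found in tumour 3 (0.53), tumour 4 (0.42) and tumour_swim 2 to 6 (0.27 to 0.6), whose group holds tumour_swim 1. Results are therefore also given without the 3 libraries. Since the heart is a mixture of cells, fewer cells of a type and less RNA per cell cannot be told apart.

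**Figure D1:**
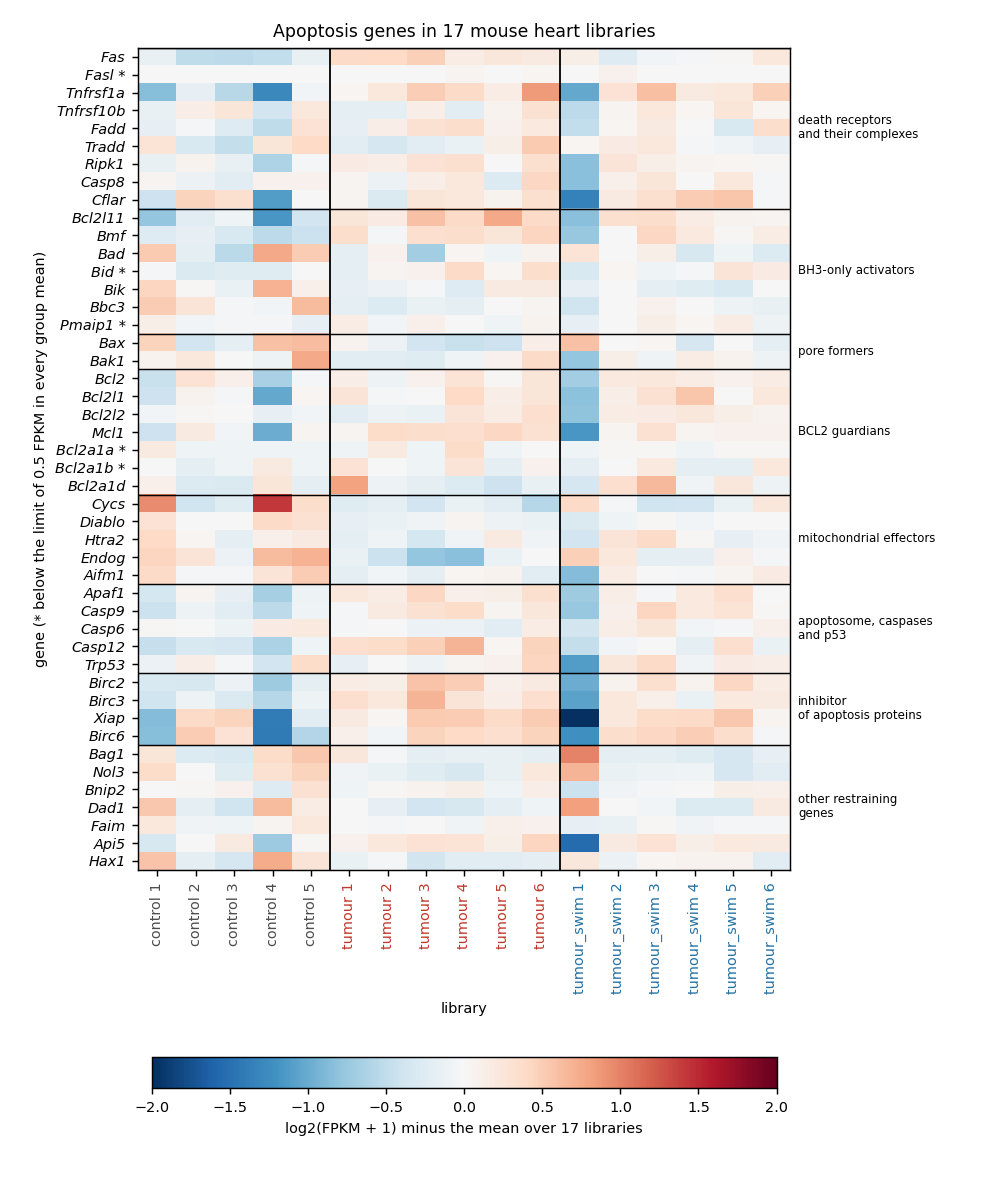
Log2(FPKM + 1) of the 46 apoptosis genes (rows, grouped by role, with asterisks on the 5 below the limit) in the 17 libraries (columns, grouped), shown as the difference from each gene's mean over all libraries. The colour scale ends at 2 on either side, Xiap in tumour_swim 1 lies beyond it, and the columns of control 1, control 4 and tumour_swim 1 differ from the rest of their groups.

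The comparison of tumour with control asks how cardiac RNA differed when a tumour was present. Of the 41 genes, 5 rose and 1 fell (14.6%, against 8.47% of all genes), all from the promoting list. The death receptors Tnfrsf1a and Fas, the BH3-only genes Bcl2l11 and Bmf and the caspase Casp12 rose, and the mitochondrial nuclease Endog fell. In the same limma test 5.14% of all 13709 genes rose and 3.33% fell, against 12.2% and 2.44% of the 41. Of the 17 restraining genes tested none passed the threshold of 0.05 on the adjusted p in this fit, and 5 had an unadjusted p under 0.05. Of the 17, Birc3, Birc2, Mcl1 and Api5 passed without tumour_swim 1, which is in neither group (limma adjusted p = 0.00191, 0.00406, 0.0252 and 0.038). In that fit 29.3% of the 41 genes rose and 7.32% fell, against 19.2% and 7.43% of all genes. Over the 41 genes 17 (41.5%) had an unadjusted p under 0.05, against a background of 27.6%. The median log2 fold change was -0.05 for the promoting and 0.25 for the restraining genes, against 0.14 for all genes tested. Without the 3 libraries that stood apart these medians were -0.05, 0.05 and 0.03, and with the length trend removed 0.02, 0.08 and 0.13, so the gap between the lists was smaller in both. Median-of-ratios scaling brought the all-gene median to -0.02 and quantile normalization to 0.00, and the split of calls in the list was then 8 higher and 5 lower, or 8 and 4. Under median-of-ratios scaling these are 19.5% and 12.2% of the 41 genes, against 6.9% and 7.05% of all genes. Under quantile normalization they are 19.5% and 9.76%, against 7.82% and 7.44%.

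**Figure D2:**
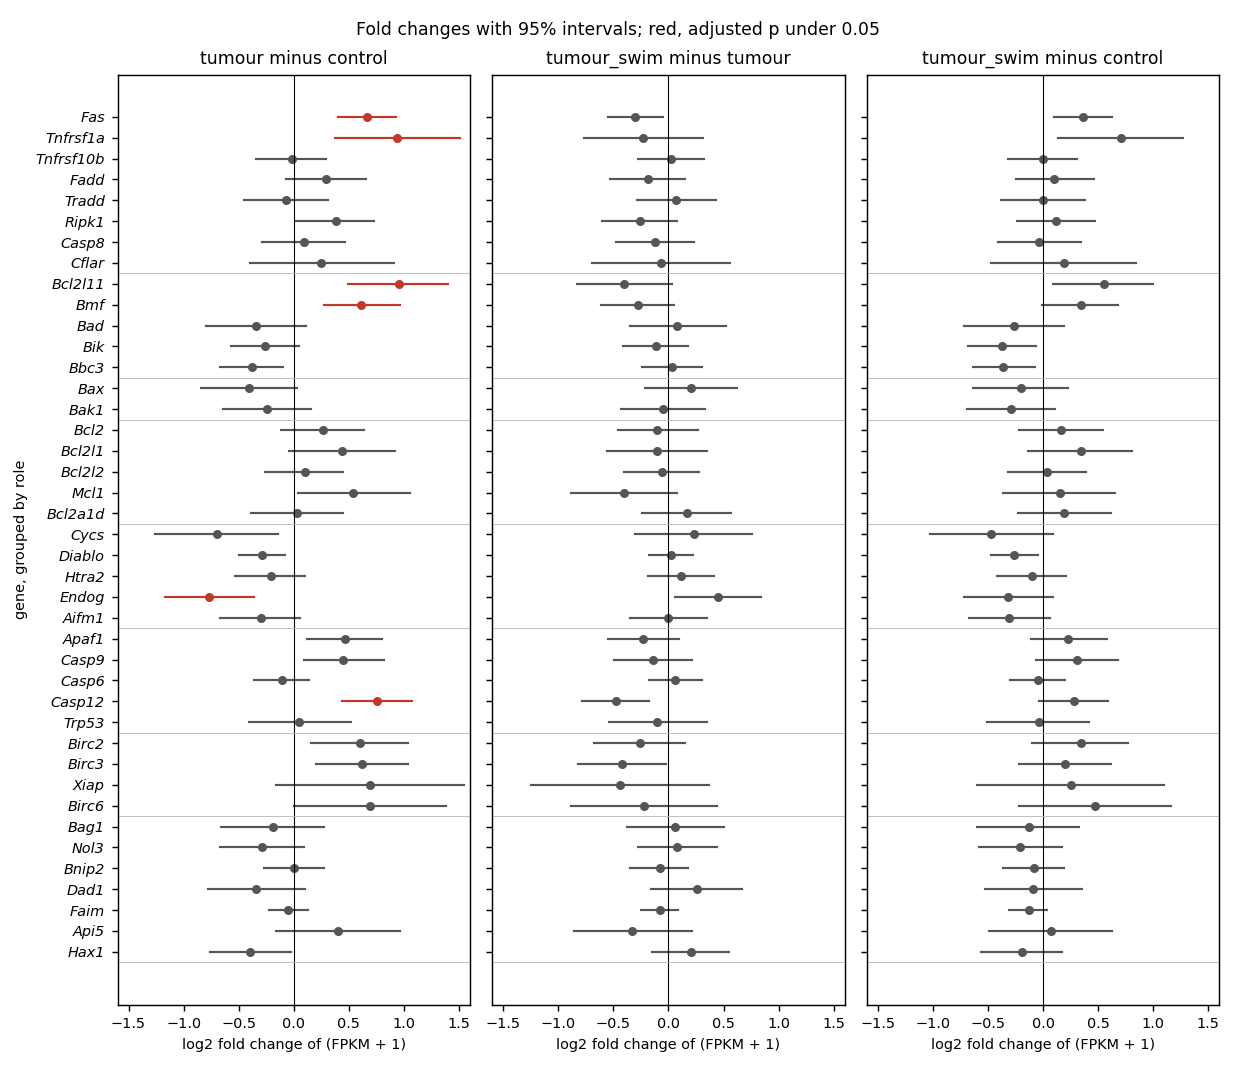
Log2 fold change (points, on the log2(FPKM + 1) scale) with its 95% interval (lines) for the 41 tested apoptosis genes, grouped by role, in the 3 comparisons. The 6 genes past the adjusted threshold are red, all in tumour minus control, from Bcl2l11 at 0.95 to Endog at -0.77.

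Of the 9 genes for death receptors, their ligand and the proteins they recruit, 8 were tested and 2 rose. Fas, the receptor for Fas ligand (GRCm38 chromosome 19, 34290666 to 34327772, + strand), was at 7.71, 5.84, 5.77, 5.87 and 7.74 FPKM in control 1 to 5. In tumour its level ran from 9.68 to 12.5 FPKM with a median of 11. Every tumour library lay above every control library. The log2 fold change was 0.66 ± 0.13 (SE; limma adjusted p = 0.00476), or 0.53 above the median of all genes. It lost its call under median-of-ratios scaling, at 0.47 with an adjusted p of 0.136 in limma.

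Tnfrsf1a, which encodes TNF receptor 1 (chromosome 6, 125349362 to 125362484, + strand), was the most abundant receptor of the list. Control 1 to 5 held 14, 23.2, 17.5, 10.1 and 25.1 FPKM, and the tumour libraries 27.0 to 47.9 with a median of 32.5. The groups did not overlap, though the lowest tumour library was close to control 5. The log2 fold change was 0.94 ± 0.27 (limma adjusted p = 0.0389), 0.80 above the median of all genes. The 2 lowest control libraries, control 1 and control 4, were among those that stood apart, and without all 3 such libraries the log2 fold change was 0.61 (limma adjusted p = 0.0262). Its call was lost without any 1 of control 1, 3 or 4, tumour 2, 3, 4 or 6 or tumour_swim 4, with limma adjusted p-values from 0.0503 to 0.121, and with no lower limit on expression (0.0771).

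The intracellular partners did not pass the threshold with all libraries. Fadd, the adaptor that joins receptors to caspase 8, had a log2 fold change of 0.29, and Ripk1, a kinase of the TNF receptor complex, one of 0.38. Ripk1 passed without tumour_swim 1, at the same value (limma adjusted p = 0.0223). Casp8, the initiator caspase of this route, ran from 3.47 to 4.48 FPKM in control with a median of 4.37, and from 3.27 to 5.85 in tumour with a median of 4.49. Its groups overlapped throughout, and its log2 fold change of 0.09 had a 95% interval of -0.29 to 0.46. Cflar, which encodes c-FLIP, the decoy that blocks caspase 8, was at 2.25, 4.91, 4.41, 0.999 and 3.31 FPKM in control 1 to 5 and at 2.54 to 4.40 in tumour with a median of 3.78. Its log2 fold change was 0.25, with an interval of -0.40 to 0.91. Tradd, another adaptor of TNF receptor 1, and Tnfrsf10b, a TRAIL receptor, had values of -0.07 and -0.02. Fas ligand itself (Fasl) was listed at 0 in every control library and reached at most 0.0659 FPKM in any library, 2 reads, so it was not tested.

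Of the 7 BH3-only genes, 5 were tested and 2 rose. Bcl2l11, which encodes BIM, an activator that binds all guardians (chromosome 2, 128126038 to 128162547, + strand), was at 0.822, 1.66, 1.93, 0.398 and 1.39 FPKM in control 1 to 5. Tumour libraries held 2.48 to 4.26 FPKM with a median of 3.08. Each tumour library exceeded all 5 control libraries. Bcl2l11 had a log2 fold change of 0.95 ± 0.22 (limma adjusted p = 0.0137), 0.81 above the median of all genes. It passed the threshold in all 28 other fits, with values of 0.65 to 1.45, and was 0.65 without the 3 libraries that stood apart.

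Bmf, a BH3-only protein tied to the cytoskeleton (chromosome 2, 118528757 to 118549687, - strand), was at 0.994, 1.12, 0.925, 0.654 and 0.760 FPKM in control 1 to 5. In tumour it ran from 1.31 to 2.19 FPKM with a median of 2.01. These groups did not overlap either. Bmf had a log2 fold change of 0.61 ± 0.16 (limma adjusted p = 0.0296), 0.48 above the median of all genes. The call was lost with a pseudocount of 0.1 FPKM (limma adjusted p = 0.0506), with no lower limit on expression (0.0607), with the replicate number as a block (0.0643) and without any 1 of control 1, 4 or 5 or tumour 1, 3, 4 or 6 (0.0554 to 0.0814).

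The other BH3-only genes leaned the other way without passing. Bbc3, which encodes PUMA, a p53 target, had a log2 fold change of -0.38 (limma adjusted p = 0.0843). Bad and Bik, which antagonise guardians, had -0.34 and -0.26, but only -0.06 and -0.03 without the 3 libraries that stood apart. Without the 3 libraries that stood apart, Bbc3 passed at -0.41 (limma adjusted p = 0.0428), as it did under median-of-ratios scaling at -0.50 (0.00572) and quantile normalization at -0.58 (0.00484). With the length trend removed it was at -0.21 (limma adjusted p = 0.468). The genes whose promoters are printed above, Bcl2l11 and Bbc3, therefore had fold changes of opposite sign. Bid, the link from caspase 8 to the mitochondrion, stayed below the limit, with medians of 0.108 FPKM in control and 0.367 in tumour, and Pmaip1 (NOXA) at no more than 0.242 FPKM.

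**Figure D3:**
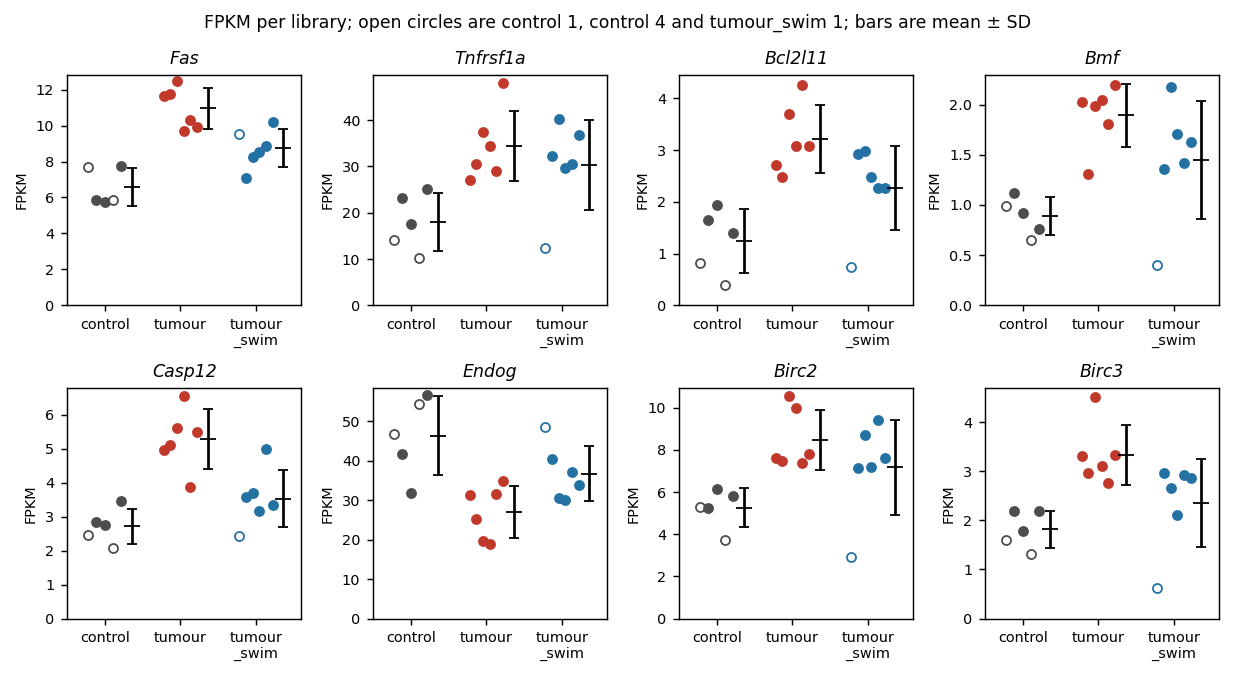
FPKM of the 6 genes past the threshold and of Birc2 and Birc3 in each library (points), by group, with group means and SD (bars); open circles are control 1, control 4 and tumour_swim 1. For the 7 genes other than Endog every tumour library lies above every control library; for Endog the ranges, 31.9 to 56.6 in control and 18.9 to 34.8 in tumour, overlap.

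Neither pore-forming gene passed with all 17 libraries on the deposited scale. Bax, which opens the outer mitochondrial membrane, was at 12.9, 6.87, 7.95, 14.3 and 14.7 FPKM in control 1 to 5, and at 6.53 to 10.2 in tumour with a median of 7.63. The 3 highest control libraries stood above every tumour library, and the other 2 lay within the tumour range. Its log2 fold change was -0.41 with a 95% interval of -0.84 to 0.03 (limma adjusted p = 0.206), and -0.21 without the 3 libraries that stood apart. Bak1, its partner, was at -0.24 with an interval of -0.64 to 0.16, and at -0.41 with a call under both median-of-ratios scaling and quantile normalization (limma adjusted p = 0.0272 and 0.0262).

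None of the 5 tested guardians passed in limma with all libraries. Their log2 fold changes ran from 0.03 to 0.54, with an unadjusted p under 0.05 at 1 of them, Mcl1. Mcl1, a short-lived guardian that cardiomyocytes need, was the most abundant of them. It was at 54.2, 82.9, 70.3, 36.3 and 75.6 FPKM in control 1 to 5 and at 75.5 to 97.1 in tumour with a median of 92.3. Only control 2 and control 5 reached the tumour range, and the log2 fold change was 0.54 with an interval of 0.04 to 1.05 (limma adjusted p = 0.151), or 0.24 without the 3 libraries that stood apart. Without tumour_swim 1 alone Mcl1 passed, at 0.54 (limma adjusted p = 0.0252). Bcl2l1, which encodes BCL-xL, was at 10.6, 15.2, 14.1, 6.56 and 14.8 FPKM in control 1 to 5, and at 14.2 to 19.3 in tumour with a median of 16.5. Its groups overlapped, and the log2 fold change was 0.44 with an interval of -0.04 to 0.92, or 0.14 without the 3 libraries that stood apart.

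Bcl2, the founding guardian, was expressed at far lower levels, 0.727, 1.88, 1.53, 0.513 and 1.31 FPKM in control 1 to 5 and 1.2 to 1.86 in tumour with a median of 1.56. The groups overlapped, and control 1 and control 4 were the lowest. The log2 fold change of 0.26, with an interval of -0.12 to 0.64, became -0.01 without the 3 libraries that stood apart. Bcl2l2 (BCL-w) was at 0.10 and Bcl2a1d, an A1 guardian, at 0.03, and both were below 0 under median-of-ratios scaling. The A1 copies share 69.0% to 79.5% of their 50-base words with other genes, so reads cannot be assigned to a single copy with certainty; Bcl2a1a and Bcl2a1b were below the limit, at no more than 0.405 FPKM.

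The ratio of Bax to Bcl2 FPKM, often used as a shorthand for the balance of these proteins, is given as a description. It was 17.7, 3.66, 5.2, 27.8 and 11.2 in control 1 to 5, between 3.51 and 7.01 in tumour with a median of 5.23, and between 4.36 and 31.2 in tumour_swim with a median of 5.47. The 2 highest control values and the highest tumour_swim value came from the libraries that stood apart. Without those, control ran from 3.66 to 11.2 and tumour_swim from 4.36 to 6.08, so that the 3 groups overlapped. Bax has 1576 bases of exon and Bcl2 9157, and whether the shortage of long transcripts set this ratio was not tested.

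**Figure D4:**
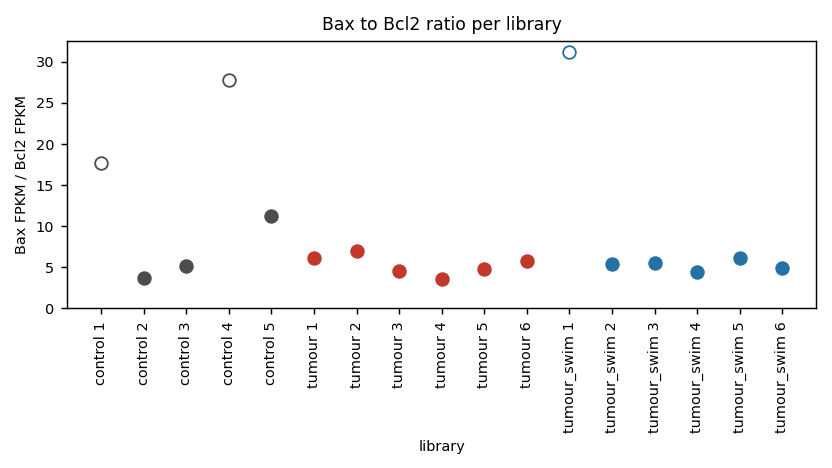
Ratio of Bax FPKM to Bcl2 FPKM (vertical axis) in each library (points, coloured by group); open circles are the 3 libraries that stood apart. The ratios of control 1 (17.7), control 4 (27.8) and tumour_swim 1 (31.2) lie above those of all other libraries, where it is at most 11.2.

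The mitochondrial effectors act after the membrane opens. All 5 had a negative log2 fold change, from -0.21 to -0.77, and 1 fell. Their sign was the same under both other scalings, without the 3 libraries and with the length trend removed. Endog, a nuclease that leaves the mitochondrion and cuts DNA (chromosome 2, 30171493 to 30174069, + strand), was at 46.8, 41.7, 31.9, 54.4 and 56.6 FPKM in control 1 to 5. In tumour it ran from 18.9 to 34.8 FPKM with a median of 28.3. Control 3 lay within the tumour range, and the other control libraries lay above it. The log2 fold change was -0.77 ± 0.19 (limma adjusted p = 0.0217), or -0.90 relative to the median of all genes. The call was lost with the length trend removed, at -0.49 (limma adjusted p = 0.0797), and without any 1 of control 1, 4 or 5 or tumour 3 or 4 (0.0555 to 0.0652). Of its exon bases 35.7% overlap Spout1 on the opposite strand; the labels used here do not say whether reads were counted by strand, and Spout1 itself had a log2 fold change of 0.30 (limma adjusted p = 0.142).

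Cycs, which encodes cytochrome c, had the highest control mean of the list, 226 FPKM. It was at 292, 114, 127, 402 and 193 FPKM in control 1 to 5, and at 102 to 138 in tumour with a median of 129. Control 2 and control 3 lay within the tumour range. Its log2 fold change was -0.70 with an interval of -1.26 to -0.14 (limma adjusted p = 0.104), and -0.19 without the 3 libraries that stood apart. Cycs shares 26.1% of its 50-base words with other genes, so its level is uncertain. Diablo, which encodes the IAP antagonist SMAC, was at -0.29 and passed in place of Endog with the length trend removed (limma adjusted p = 0.0495). It also passed under median-of-ratios scaling, at -0.41 (0.0273), and quantile normalization, at -0.48 (0.0251). Aifm1, an apoptosis-inducing flavoprotein, was at -0.30, and passed under median-of-ratios scaling at -0.51 (limma adjusted p = 0.0283). Htra2, a protease that displaces IAPs, was at -0.21. Diablo shares 37.3% of its 50-base words with other genes and Htra2 33.8%, so their levels are uncertain too.

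Among the apoptosome, the other caspases and p53, 1 of 5 rose. Casp12, a caspase of the endoplasmic reticulum in mice (chromosome 9, 5345430 to 5373032, + strand), was at 2.47, 2.84, 2.76, 2.07 and 3.46 FPKM in control 1 to 5. In tumour it ran from 3.88 to 6.57 FPKM with a median of 5.31. All tumour libraries exceeded all control libraries. Casp12 had a log2 fold change of 0.75 ± 0.15 (limma adjusted p = 0.00641), 0.62 above the median of all genes, and it passed in all 28 other fits with values of 0.55 to 0.93.

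Apaf1 and Casp9, the scaffold and the caspase of the apoptosome, also had groups that did not overlap. Apaf1 was at 0.617, 1.16, 0.843, 0.314 and 0.936 FPKM in control 1 to 5, and at 1.22 to 1.75 in tumour with a median of 1.34. Casp9 was at 1.30, 1.89, 1.65, 1.16 and 1.93 FPKM in control 1 to 5, and at 2.02 to 3.0 in tumour with a median of 2.57. Neither passed, with log2 fold changes of 0.46 (limma adjusted p = 0.0865) and 0.45 (0.11). Under median-of-ratios scaling both passed, at 0.37 (limma adjusted p = 0.0464) and 0.32 (0.0304), and Apaf1 also did under quantile normalization, at 0.31 (0.0441). Casp9 passed with array weights. Without tumour_swim 1 both passed (limma adjusted p = 0.0112 for Apaf1 and 0.00886 for Casp9). Trp53, the p53 gene, was at 2.71, 3.40, 2.97, 2.09 and 4.21 FPKM in control 1 to 5 and at 2.57 to 4.42 in tumour with a median of 3.10. Its ranges nearly coincided, and the log2 fold change was 0.05 with an interval of -0.41 to 0.52. Casp6, an executioner caspase, was at -0.11.

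The 4 IAP genes all had positive values, from 0.60 to 0.69, and none passed in limma, with an unadjusted p under 0.05 at 3 of them. Their sign held under both other scalings and without the 3 libraries, where the values ran from 0.16 to 0.49. Birc3 and Birc2, which encode cIAP2 and cIAP1, ubiquitin ligases of the TNF receptor complex, had groups that did not overlap, with highest control values of 2.19 and 6.17 FPKM and lowest tumour values of 2.76 and 7.37. Their log2 fold changes were 0.62 (limma adjusted p = 0.0605) and 0.60 (0.079), and without the 3 libraries both passed, at 0.49 (0.0145) and 0.48 (0.0223). They also passed under median-of-ratios scaling, at 0.47 (limma adjusted p = 0.0225) and 0.42 (0.0219), under quantile normalization, at 0.41 (0.0266) and 0.45 (0.0169), and with array weights. Without tumour_swim 1 alone Birc3 and Birc2 passed at 0.62 and 0.60 (limma adjusted p = 0.00191 and 0.00406). Xiap, which binds and blocks caspases directly, was at 2.65, 7.65, 8.0, 1.51 and 4.66 FPKM in control 1 to 5 and at 5.83 to 8.57 in tumour with a median of 8.01. Control 2 and control 3 lay within the tumour range, and its log2 fold change of 0.69 had an interval of -0.16 to 1.54. Birc6, a very large IAP, had 0.69 as well, with an adjusted p of 0.181 in limma.

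Over the list, 9 of 41 genes (22%) were higher in every tumour library than in every control library, against 7.59% of all genes tested. They are Tnfrsf1a, Fas, Bcl2l11, Bmf, Casp12, Apaf1, Casp9, Birc2 and Birc3. No gene of the list was lower in every tumour library, against 2.82% of all genes. The 7 remaining restraining genes ran from -0.40 for Hax1, a mitochondrial survival protein, to 0.40 for Api5, a nuclear one. Without the 3 libraries that stood apart the 7 ran from -0.18 to 0.16. None was past the threshold with all libraries. Api5 passed without tumour_swim 1 (limma adjusted p = 0.038), and Hax1 without control 3, at -0.53 (0.0481). Nol3, a muscle and heart protein that binds caspase 8, was at -0.29, and Bag1, a partner of BCL2 and of HSP70 chaperones, at -0.19. Dad1, a subunit of the oligosaccharyltransferase, was at -0.34, Faim, an inhibitor of Fas-driven death, at -0.05, and Bnip2, which binds BCL2, at 0.00. Bag1 was abundant, at 163 ± 42.0 FPKM in control (SD, n = 5) and 139 ± 16.5 FPKM in tumour (n = 6). Nol3 shares 47.4% of its 50-base words with other genes and Hax1 28.4%, so their levels are uncertain.

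Genes of the same pathways outside the list were counted in the same limma test, where 5.14% of all genes rose and 3.33% fell. The genes named are single calls, not a result about a list. Among 12 other caspases and their substrates 1 rose, the inflammatory caspase Casp4, with means of 0.708 FPKM in control and 1.45 in tumour (0.51 on the log2 scale, adjusted p = 0.0189, and 0.0756 under quantile normalization). Of 13 tested p53 targets, Trp53inp1, a stress-response gene, rose (0.88, adjusted p = 0.0422) and Aen, a nuclease, fell (-0.44, adjusted p = 0.0373). Of 18 TNF receptor signalling genes Tnfrsf12a, the TWEAK receptor, fell (-0.83, adjusted p = 0.0427), and it lost its call without the 3 libraries that stood apart (-0.60, 0.156) and with the length trend removed (-0.63, 0.0957). Of 13 genes of the mitochondrial gate Slc25a5, an ADP/ATP carrier, fell (-0.60, adjusted p = 0.0356), and it lost its call in the same fits (-0.33, 0.127 and -0.37, 0.107) and under median-of-ratios scaling (-0.81, 0.0571). None of 6 other BCL2 family genes passed, with the smallest adjusted p at Bnip3 (0.64, 0.0783). Nor did any of 4 other IAPs and their ligands, with the smallest at Naip2 (0.35, 0.0872). Of these 2 lists 4 and 1 genes had an unadjusted p under 0.05, against 27.6% of all genes. In limma none of the tested genes of these 6 lists passed in tumour_swim against tumour or against control, as 0.0% and 0.905% of all genes did. In these comparisons 4 and 5 of them had an unadjusted p under 0.05, against 4.04% and 12.4% of all genes.

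Markers of other cells moved in the same comparison. The summed level of 13 neutrophil markers ran from 2.07 to 3.45 FPKM over the control libraries, from 16.1 to 52.3 over tumour and from 7.30 to 18 over tumour_swim. Of the 6 tested 5 rose in tumour, and 3 of the 13 were at 0 in every control library. Ly6g, a defining marker, was at 0.117 FPKM in tumour 1 and at 0 in every other library. S100a8 and S100a9 held the largest part of the highest sum, at 11.5 and 24.9 FPKM in tumour 1. Fibroblast markers summed to 297 to 436, 455 to 1000 and 268 to 715 FPKM, and 6 of 9 rose. Macrophage and monocyte markers summed to 243 to 493, 379 to 834 and 274 to 574 FPKM, and 5 of 14 rose. Endothelial markers summed to 68.8 to 211, 133 to 212 and 40.9 to 197 FPKM, and 1 of 8 rose. Cardiomyocyte markers, the most abundant of the lists, summed to 12700 to 19100, 10700 to 13500 and 11400 to 14800 FPKM. Of the 10, 2 fell and 5 had positive log2 fold changes, up to 0.80. These sums include the libraries that stood apart. Without them 5 neutrophil, 6 fibroblast and 7 macrophage and monocyte markers rose in tumour against control. In that fit 1 endothelial marker rose and 1 fell, and 2 cardiomyocyte markers fell, against 7.12% of all genes higher and 5.42% lower. No T, NK or B cell marker reached the limit. Fas, Tnfrsf1a and Casp12 are expressed by several of these cell types, and the part of cell makeup in their change was not tested.

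The comparison of tumour_swim with tumour asks whether swimming altered the state seen with the tumour. No gene of the list passed the threshold in limma in either direction, against a background of 0.0% of all 13709 genes, and 4 of 41 (9.76%) had an unadjusted p under 0.05, against 4.04% of all genes. The count was 0 under every other fit run, against at most 0.233% of all genes higher and 0.0948% lower, both with array weights. Those 4 were Casp12 (log2 fold change -0.48, interval -0.78 to -0.18), Fas (-0.30, -0.55 to -0.05), Birc3 (-0.42, -0.82 to -0.02) and Endog (0.45, 0.06 to 0.84), each with an adjusted p of 0.957 in limma. The median log2 fold change was -0.08 for the 41 genes and -0.08 for all genes tested, and 0.03 and 0.04 without the 3 libraries that stood apart.

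In tumour_swim, Fas ran from 7.09 to 10.2 FPKM with a median of 8.68, Casp12 from 2.42 to 4.98 with a median of 3.46, and Endog from 29.9 to 48.6 with a median of 35.5. All 3 ranges overlapped those of tumour. No gene of the list was higher or lower in every tumour_swim library than in every tumour library, as 0.146% and 0.226% of all genes were. Tnfrsf1a, at 12.4 to 40.3 FPKM with a median of 31.3, had a log2 fold change of -0.23 with an interval of -0.77 to 0.31, and 0.00 without the 3 libraries that stood apart. Bcl2l11, at 0.747 to 2.97 FPKM with a median of 2.37, had -0.40 with an interval of -0.83 to 0.03, and -0.23 without them. Bmf, at 0.400 to 2.17 FPKM with a median of 1.52, had -0.28 with an interval of -0.61 to 0.05, and -0.12 without them.

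Bax and Bcl2 had log2 fold changes of 0.20 and -0.10 between tumour_swim and tumour, with intervals of -0.21 to 0.62 and -0.46 to 0.27. Both intervals hold 0 and leave room for changes of either sign. Mcl1 had -0.40 with an interval of -0.88 to 0.08, and Trp53 -0.10 with an interval of -0.54 to 0.35. For Casp8 it was -0.12 (-0.48 to 0.23), for Casp9 -0.14 (-0.49 to 0.21) and for Apaf1 -0.23 (-0.55 to 0.10). Without the 3 libraries that stood apart the values were 0.03 for Casp8, 0.02 for Casp9, -0.09 for Apaf1, 0.12 for Trp53, -0.19 for Mcl1, 0.09 for Bax and 0.05 for Bcl2, so that 4 of these 7 genes changed sign. The widest interval of those named was that of Xiap, at -0.44 with an interval of -1.25 to 0.37; its lowest tumour_swim library, tumour_swim 1, held 0.578 FPKM, the other 5 held 5.89 to 8.63, and without the 3 libraries its value was -0.05.

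The comparison of tumour_swim with control asks what remained of the tumour's difference in mice that swam. No gene of the list passed in limma, against 0.554% of all genes higher and 0.35% lower, and 6 of 41 (14.6%) had an unadjusted p under 0.05, against 12.4%. They were Tnfrsf1a (0.71, interval 0.14 to 1.27), Fas (0.36, 0.10 to 0.63), Bcl2l11 (0.55, 0.09 to 1.00), Bik (-0.37, -0.68 to -0.06), Bbc3 (-0.36, -0.64 to -0.07) and Diablo (-0.26, -0.47 to -0.05). No gene of the list had groups that did not overlap, against 0.715% of all genes higher and 0.868% lower in every tumour_swim library. Median-of-ratios scaling passed Tnfrsf1a alone, at 0.64 (limma adjusted p = 0.0246), and array weights passed Tnfrsf1a and Bcl2l11. These are 2.44% and 4.88% of the 41 genes, against 1.35% and 2.98% of all genes higher in the same fits. Without tumour_swim 1 the count was 7: Apaf1, Tnfrsf1a, Bmf, Birc3, Bcl2l11, Casp9 and Birc2. That is 17.1% of the 41 genes, against 13.4% of all genes higher in the same fit. This comparison shares its control libraries with the first and its tumour_swim libraries with the second. The first and the second share the tumour libraries, with opposite sign, so the 3 values of a gene are not independent. Genes picked for their call in the first can show the opposite sign in the second through that choice alone. For Fas the log2 fold changes of the 3 comparisons, in the order given, were 0.66, -0.30 and 0.36, for Casp12 0.75, -0.48 and 0.28, for Tnfrsf1a 0.94, -0.23 and 0.71, for Bcl2l11 0.95, -0.40 and 0.55, and for Endog -0.77, 0.45 and -0.32.

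Transcript length varied across the list, and deviations in the 3 libraries that stood apart were correlated with it, with exceptions. Median exon length was 3622 bases for the promoting and 4545 for the restraining genes. Measured against the libraries of its group that did not stand apart, Xiap, with 9469 bases, deviated by -1.06 in control 1, -1.6 in control 4 and -2.38 in tumour_swim 1 on the log2(FPKM + 1) scale. Birc6, with 25772 bases, deviated by -0.92, -1.49 and -1.54, and Cflar by -0.67, -1.37 and -1.66. Upward deviations were found at Cycs, with 3404 bases, by 1.04, 1.5 and 0.53, and at Bag1, with 1349 bases, by 0.26, 0.37 and 1.21. Against the trend, Tnfrsf1a, with 2591 bases, deviated by -0.59, -1.03 and -1.37, and Mcl1, with 3418 bases and so close to Cycs in length, by -0.48, -1.05 and -1.27. The median deviation of the restraining genes was below that of the promoting genes in each, at -0.15 against 0.10 in control 1, -0.40 against -0.16 in control 4 and -0.95 against -0.50 in tumour_swim 1. Of these libraries 2 are in control and none in tumour, where tumour 1 and tumour 2 had a weaker trend of the same sign. Leaving out all 3 moved the log2 fold change of tumour against control from 0.69 to 0.16 for Xiap, from 0.69 to 0.21 for Birc6 and from -0.70 to -0.19 for Cycs. For Cflar it went from 0.25 to -0.15 and for Bcl2 from 0.26 to -0.01, none of them past the threshold in either fit. Fas, with 2062 bases, went from 0.66 to 0.69 and Tnfrsf1a from 0.94 to 0.61, and both kept their call.

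**Figure D5:**
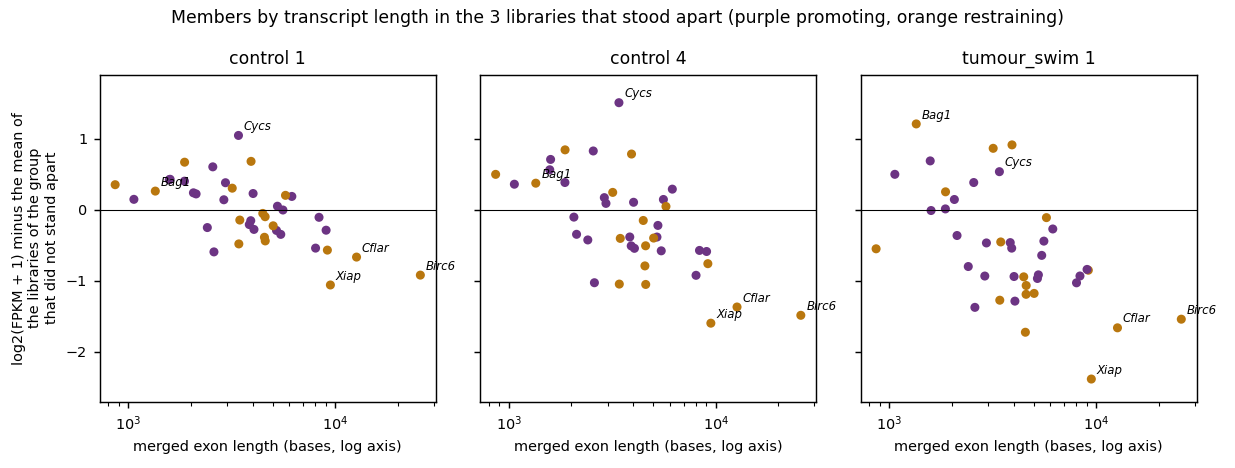
Deviation of each tested apoptosis gene in control 1, control 4 and tumour_swim 1 from the libraries of its group that did not stand apart (log2(FPKM + 1) scale) against exon length (bases, log axis), with promoting genes in purple and restraining genes in orange. Long genes such as Xiap (-1.06, -1.6 and -2.38) and Birc6 lie low and Cycs lies high in all 3.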

How the data were processed

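RNA of 17 mouse heart samples was sequenced; per the labels' protocols it was extracted with TRIzol and made into libraries with a NEBNext Ultra RNA kit. Tools named in the submitters' processing notes are bcl2fastq, fastp and FastQC, with the build mm10; for the aligner, counter, annotation and strandedness, none is given in the sources used here. The authors' deposited table holds values whose unit, FPKM, was inferred: multiplied by GENCODE M21 exon length their sum is 99.0% to 99.7% of what FPKM should give, and 98.7% to 99.1% of low values (under 20 reads) lie within 0.1 of whole reads. Most positions in the table differ from GRCm38, so positions come from GENCODE M21 by gene ID.

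Genes averaging 0.5 FPKM or more in any group were tested with limma 3.58.1 (limma-trend, two-sided, R 4.3.3) on log2(FPKM + 1), so fold changes of low genes are understated. All 17 libraries entered 1 fit (14 residual degrees of freedom), with Benjamini-Hochberg adjustment over 13709 genes per comparison. Groups follow the treatment labels, and replicate numbers were not taken to pair the libraries. Members and lists were chosen with earlier results of these data known. Genes past the threshold and a set of 11 central genes are given by library, other members by range or fold change, and pathway genes only where past the threshold or closest to it. Sequence shared with other genes was counted in words of 50 bases from GENCODE M21 transcripts. Alternatives covered pseudocount, limits, scaling, weights, replicate block, length and leaving out libraries.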

Additional observations from a re-analysis of the deposited data

Results flagged for a closer look

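Of 123 groups of libraries (41 genes in 3 groups), 21 held a library far from the others of its group; chance gives about 1 in 20 groups. In 17 of the 21 it was tumour_swim 1, which was low in Bak1 (2.24 FPKM), Bcl2l11 (0.747), Casp8 (1.89), Tnfrsf10b (0.055), Aifm1 (11.6), Ripk1 (0.332), Bcl2 (0.458), Bcl2l2 (5.66), Mcl1 (32.1), Birc2 (2.93), Birc3 (0.628), Xiap (0.578) and Api5 (3.68). The same library was high in Bax (14.3 FPKM), Bag1 (290), Nol3 (22.3) and Dad1 (22). Mitochondrially encoded RNA took 46.3% of its reads; its part in these values was not tested. Tumour 1 was low in Mcl1 (75.5 FPKM) and high in Bcl2a1d (1.6) and Bag1 (171), and tumour 3 was high in Birc3 (4.5).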

How the results depend on the processing

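In tumour against control, 5 genes of the list rose. The count was 3 with no lower limit (6.52% of the list, against 1.68% of all genes). It was 8 (19.5%) under median-of-ratios scaling, quantile normalization or array weights, against 6.9%, 7.82% and 8.08% of all genes. When 1 library was left out, the lowest count was 3, without control 1, control 4, tumour 3, tumour 4 or tumour 6. That is 7.32% of the list, against 2.3% to 2.82% of all genes. The highest was 12, without tumour_swim 1 (29.3% of the list, against 19.2% of all genes). The genes gained there were Casp9, Apaf1, Ripk1, Mcl1, Birc2, Birc3 and Api5. The count of genes that fell, 1, became 5 under median-of-ratios scaling (12.2%, against 7.05% of all genes) and 4 under quantile normalization (9.76%, against 7.44%). It was 2 with array weights (4.88%, against 4.07%) and 2 when the 3 libraries that stood apart were left out together (4.88%, against 5.42%). Leaving out 1 library, it was 0 without control 1, control 4, control 5, tumour 3 or tumour 4, against 1.53% to 1.83% of all genes. It reached 5 without control 3 (12.2%, against 4.93%). It was 3 (7.32%) without control 2 or tumour_swim 1, against 4.87% and 7.43%. In tumour_swim against control the count higher, 0, became 1 under median-of-ratios scaling (2.44%, against 1.35% of all genes) and 2 with array weights (4.88%, against 2.98%). Leaving out 1 library, it ran from 0 to 7 (without tumour_swim 1, 17.1%, against 13.4%). Over all genes, tumour against control gave 704 higher and 457 lower, 944 and 964 under median-of-ratios scaling, and 1072 and 1020 under quantile normalization. Same-numbered libraries varied together at some numbers only: correlations of their deviations ran from -0.67 to 0.68. With the replicate number as a block, 4 genes of the list were higher and 1 lower in tumour against control, and 0 in the other comparisons. In tumour against control these are 9.76% and 2.44% of the list, against 3.45% and 2.83% of all genes. Bmf lost its call (limma adjusted p = 0.0643). Of the fold changes of single genes under other settings, 3362 kept their side of the threshold, 47 gained and 26 lost a call, and none that was called changed sign. Depth of 13.4 to 19.8 M reads limits Fasl, Pmaip1, Bid and the A1 copies most.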
